A study of Mus musculus with 23 samples.

Results

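The p38 MAPK cascade and its MAPKAP kinases were followed at the transcript level through 9 genes, chosen by name: the MAPK kinases *Map2k3* and *Map2k6*, the p38 isoforms *Mapk14*, *Mapk11*, *Mapk12* and *Mapk13*, and the MAPKAP kinases *Mapkapk2* (MK2), *Mapkapk3* (MK3) and *Mapkapk5* (MK5). All 9 had a probe, and their 11 probes were among 32,885 array probes with an NCBI accession, of which 27,509 could be named and stood for 20,887 genes. RNA came from bone marrow-derived macrophages (BMDM) of male mice of the strain C57BL/6 (C57BL/6J in the methods), differentiated with M-CSF. The genotypes were wild-type (wt, mice aged 12 to 13 weeks), MK2-deficient (MK2-/-, 10 to 13 weeks) and deficient in both MK2 and MK3 (MK2/3-/-, 11 to 14 weeks), and each culture received medium alone or 100 ng/ml LPS, a bacterial cell wall component, for 120 min. Each of the 6 groups had 4 one-colour arrays from independent experiments, except MK2-/- BMDM in medium with 3, giving 23 arrays. The methods describe deficient animals, not a loss limited to macrophages, MK3 was never absent alone in these arrays, and which exons the targeted alleles lack is not given in the sources used here.

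LPS engages Toll-like receptor 4, whose adaptors activate MAP3 kinases. These phosphorylate MKK3 (the product of *Map2k3*) and MKK6 (*Map2k6*), which in turn activate the p38 kinases, p38α (*Mapk14*) being the main isoform in macrophages. Active p38α docks onto MK2 and the closely related MK3 and phosphorylates them, and MK2 stabilises p38α protein and controls the stability and translation of cytokine mRNAs through tristetraprolin. MK5 is a more distant relative that is also controlled by the atypical MAP kinases ERK3 and ERK4. Because MK2 and MK3 share substrates, the question addressed here was whether transcripts of the remaining kinases differed where MK2, or MK2 and MK3, were missing.

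For *Mapkapk2*, *Mapkapk3* and *Map2k3*, the members that passed a test for LPS against medium in more than 1 genotype, the 250 bases before each RefSeq start (GRCm38.p6) are shown to make the region visible in which the start site is read. The RefSeq table held all 9 genes with 13 starts. *Mapkapk2* starts on the minus strand after chr1:131097844-131098093, *Mapkapk3* has starts on the minus strand after chr9:107289878-107290127 and after chr9:107289397-107289646, and *Map2k3* starts on the plus strand after chr11:60931804-60932053. Each is written 5′ to 3′, and capitals mark matches to the GC box searched below.
Mapkapk2: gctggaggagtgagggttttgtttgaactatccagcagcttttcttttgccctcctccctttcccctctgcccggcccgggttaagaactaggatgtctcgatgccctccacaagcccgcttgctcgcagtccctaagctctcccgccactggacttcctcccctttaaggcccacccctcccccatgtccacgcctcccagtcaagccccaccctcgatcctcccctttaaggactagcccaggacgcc
Mapkapk3, upstream start: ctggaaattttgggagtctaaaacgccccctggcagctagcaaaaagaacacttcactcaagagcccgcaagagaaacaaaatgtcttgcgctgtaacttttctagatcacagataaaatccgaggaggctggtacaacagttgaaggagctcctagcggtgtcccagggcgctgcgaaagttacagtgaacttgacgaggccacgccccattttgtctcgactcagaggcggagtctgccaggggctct
Mapkapk3, downstream start: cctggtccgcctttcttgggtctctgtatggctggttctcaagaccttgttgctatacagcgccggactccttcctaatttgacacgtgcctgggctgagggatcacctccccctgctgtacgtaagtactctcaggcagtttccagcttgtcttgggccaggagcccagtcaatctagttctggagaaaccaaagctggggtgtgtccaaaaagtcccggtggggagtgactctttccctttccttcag
Map2k3: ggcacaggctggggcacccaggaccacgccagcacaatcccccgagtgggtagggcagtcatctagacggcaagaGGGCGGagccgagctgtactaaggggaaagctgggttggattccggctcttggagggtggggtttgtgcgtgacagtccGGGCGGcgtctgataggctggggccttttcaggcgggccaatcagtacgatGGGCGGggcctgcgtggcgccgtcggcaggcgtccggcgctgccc

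On both strands of these windows, 5 patterns were searched, and among 32,841 windows of the same length the share that held each was 15.2% for NF-κB (GGGNNNTCC), 6.47% for the CRE core (TGACGT), 6.75% for AP-1 (TGANTCA), 12.4% for the TATA box (TATAAA), and 32.7% for the GC box (GGGCGG). The *Mapkapk2* window and both *Mapkapk3* windows held none of these letter strings. The *Map2k3* window held 3 GC boxes, at bases -175, -96 and -45 from the start. Among the other members, that of *Mapkapk5* held 2 NF-κB and 2 CRE matches, that of *Mapk11* 1 NF-κB match and 4 GC boxes, that of *Mapk13* 4 GC boxes, those of *Mapk12* and the first *Mapk14* start 1 GC box each, and of the 3 *Map2k6* starts the windows held 1 AP-1 match, 1 GC box and 1 TATA match, respectively. No match overlapped another, and a match is a run of letters, not a measured binding site. GC content was 60.4% for *Mapkapk2*, 51.6% and 54.4% for *Mapkapk3* and 67.6% for *Map2k3*, against a median of 52.4% over all windows.

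Macrophage marker genes were detected in the cultures, and so were some marker genes of other cell types. Of 8 macrophage marker genes, 7 had a probe, and all 7 were well above background on 23 of 23 arrays by the mark that the scanner software sets. Of the T cell genes, *Cd3d* was well above background on 0 arrays, *Cd3g* on 2 and *Cd3e* on 23 (log2 signal 9.66 to 11.15). The granulocyte gene *S100a9* (7.16 to 13.61) and the fibroblast gene *Col1a1* (6.32 to 14.36) were above it on all 23 and varied widely within groups. So were *S100a8* and *Elane* on all 23, *Col3a1* on 20, *Mpo* on 16 and *Pdgfra* on 2. Of the dendritic cell genes, *Siglech* was above it on 23 arrays at its brighter probe (15.98 to 17.36) and on 16 at the other. *Flt3* was above it on 23 or 7 arrays and *Zbtb46* on 22 or 12, depending on the probe. Of the B cell, mast cell and erythroid genes, 0 were above it on all arrays. The share of probes well above background was 47.5% to 69.1% over the arrays, and the lowest and the highest both belonged to MK2/3-/- BMDM in medium, replicates 1 and 2. Counts of members below were computed with and without that pair of arrays, and only the *Mapkapk5* result noted there changed. With LPS the share was 56.2% to 60.8% in wt, 49.6% to 52.5% in MK2-/- and 48.5% to 55.4% in MK2/3-/- BMDM, so that it was lower in all knockout arrays, and its part in the results with LPS was not tested. The slides held 1 genotype each and were scanned separately, and medium and LPS arrays occupied different rows of each slide, so that genotype and slide, and treatment and row, cannot be told apart.

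*Mapkapk2* signals were 7.02-fold to 11.3-fold lower in the knockout genotypes than in wt BMDM, in medium and after LPS. Signals are given as quantile-normalized log2 intensities, on which a difference of 1 is a doubling. In medium, the probe (A_52_P15008, NM_008551) gave 12.46, 12.64, 11.49 and 12.28 in the 4 wt arrays, 9.07, 8.73 and 8.94 in the 3 MK2-/- arrays and 8.61, 8.57, 8.91 and 8.79 in the 4 MK2/3-/- arrays. After LPS, it gave 14.84, 15.37, 14.19 and 14.67 in wt, 12.0, 11.89, 11.63 and 12.3 in MK2-/- and 11.54, 11.65, 11.58 and 12.26 in MK2/3-/- BMDM. Within each treatment, every knockout array lay below every wt array, and the knockout genotypes lay close to each other. MK2-/- differed from wt BMDM by -3.31 (SE 0.27, adjusted p = 7.09e-06), or 9.9-fold, in medium and -2.81 (SE 0.25, adjusted p = 2.97e-05), or 7.02-fold, after LPS, by limma with Benjamini-Hochberg adjustment over all probes. Between MK2/3-/- and wt BMDM it was -3.5 (adjusted p = 3.67e-07), or 11.3-fold, in medium and -3.01 (adjusted p = 3.2e-06), or 8.04-fold, after LPS. Both comparisons use the same wt arrays. MK2/3-/- differed from MK2-/- BMDM by -0.19 in medium (95% confidence interval -0.76 to 0.38) and by -0.2 after LPS (-0.72 to 0.33).

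The *Mapkapk2* probe stayed well above background on all 23 arrays, knockouts included. Its position relative to the deleted part of the gene was not analysed here, and a probe outside that part would not check the genotype labels. In cultured cells, a lower array signal from fewer cells holding a transcript and from less of it per cell cannot be told apart. The MK2-/- calls were lost when the groups compared were fitted alone (adjusted p = 0.245 in medium and 0.0904 after LPS), and with the methods' t-test all 4 knockout calls passed at the unadjusted threshold of the methods but not after Benjamini-Hochberg adjustment (adjusted p between 0.0633 and 0.419).

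*Mapkapk3*, the closest relative of MK2, was lower in MK2/3-/- BMDM alone. In medium, the probe (A_55_P2009762, NM_178907) gave 13.12, 13.52, 13.58 and 13.78 in wt, 13.89, 13.6 and 13.73 in MK2-/- and 11.97, 11.56, 12.08 and 11.89 in MK2/3-/- BMDM. After LPS, it gave 13.96, 13.77, 14.35 and 13.94 in wt, 13.93, 13.8, 14.07 and 14.1 in MK2-/- and 10.64, 10.36, 10.89 and 10.91 in MK2/3-/- BMDM. The wt and MK2-/- arrays overlapped under both treatments, and all MK2/3-/- arrays lay below them. MK2/3-/- differed from wt BMDM by -1.62 (SE 0.17, adjusted p = 6.96e-05), or 3.08-fold, in medium and by -3.3 (adjusted p = 1.37e-09), or 9.88-fold, after LPS. Against MK2-/- BMDM, the differences were -1.86 (adjusted p = 3.42e-05), or 3.64-fold, and -3.27 (adjusted p = 1.62e-09), or 9.67-fold. Without MK2 alone, *Mapkapk3* did not pass the test, at 0.24 in medium (confidence interval -0.13 to 0.62, adjusted p = 1) and -0.03 after LPS (-0.38 to 0.32, adjusted p = 0.991). The upper limits of these intervals correspond to a rise in *Mapkapk3* of less than 1 on the log2 scale where MK2 was missing. Both calls in medium were lost when only the groups compared were fitted (adjusted p = 0.0555 against wt and 0.144 against MK2-/- BMDM) and, after adjustment, with the methods' t-test (0.137 and 0.262), which they passed unadjusted.

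**Figure D1:**
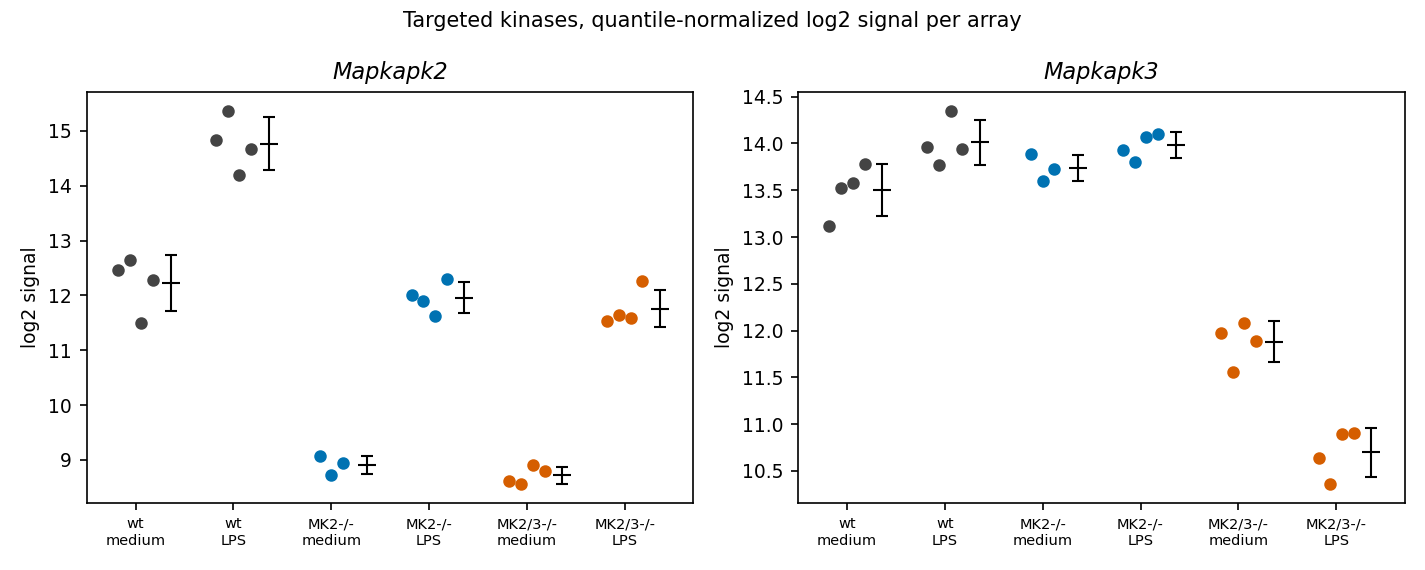
Log2 signal of *Mapkapk2* (left) and *Mapkapk3* (right) on each of the 23 arrays (points), with mean and SD of each group (bars). *Mapkapk2* lay between 8.57 and 9.07 in the knockout arrays in medium and between 11.49 and 12.64 in wt, and *Mapkapk3* lay between 10.36 and 12.08 in MK2/3-/- arrays and between 13.12 and 14.35 in all others.

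LPS raised *Mapkapk2* in all 3 genotypes, including those with a targeted *Mapkapk2* gene. The mean signal went from 12.22 ± 0.51 (SD, n = 4) to 14.77 ± 0.49 (n = 4) in wt, from 8.91 ± 0.17 (n = 3) to 11.96 ± 0.28 (n = 4) in MK2-/- and from 8.72 ± 0.16 (n = 4) to 11.76 ± 0.34 (n = 4) in MK2/3-/- BMDM. Every LPS array lay above every medium array of its genotype. The LPS response was 2.55 (adjusted p = 4.22e-07), or 5.85-fold, in wt, 3.05 (adjusted p = 1.1e-07), or 8.26-fold, in MK2-/- and 3.04 (adjusted p = 2.59e-08), or 8.22-fold, in MK2/3-/- BMDM. The LPS responses of the genotypes differed from each other by 0.5 (confidence interval -0.28 to 1.27), 0.49 (-0.25 to 1.23) and -0.01 (-0.78 to 0.77), each with an adjusted p of 1. Ordered by mean, the levels ran from wt with LPS through wt in medium, MK2-/- and MK2/3-/- with LPS, to MK2-/- and MK2/3-/- in medium. The arrays of wt in medium (11.49 to 12.64) overlapped those of MK2-/- with LPS (11.63 to 12.3), so that LPS-treated knockout cells gave signals within the range of unstimulated wt cells on this probe.

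*Mapkapk3* rose with LPS in wt BMDM and fell in MK2/3-/- BMDM, where the gene was targeted. Its mean signal was 13.5 ± 0.28 in medium and 14.01 ± 0.24 with LPS in wt BMDM, a response of 0.51 (confidence interval 0.16 to 0.86, adjusted p = 0.0392), with 3 of 4 LPS arrays above all medium arrays. In MK2/3-/- BMDM it went from 11.88 ± 0.22 to 10.7 ± 0.26, a response of -1.17 (adjusted p = 2.29e-05), or 2.26-fold lower, with 4 of 4 LPS arrays below all medium arrays. In MK2-/- BMDM the response was 0.24 and did not pass the test (adjusted p = 0.437). The LPS response of MK2/3-/- differed from that of wt BMDM by -1.68 (confidence interval -2.18 to -1.19, adjusted p = 0.014), from that of MK2-/- BMDM by -1.41 (-1.92 to -0.9, adjusted p = 0.437), and that of MK2-/- from that of wt BMDM by -0.27 (-0.79 to 0.24). The levels with LPS in wt (14.01) and MK2-/- (13.98 ± 0.14) and in medium in MK2-/- (13.74 ± 0.14) and wt were neighbours with overlapping arrays. In MK2/3-/- BMDM the *Mapkapk3* probe stayed well above background on all arrays. Its position relative to the deleted part of the gene was not analysed here, and what gives the remaining signal was not tested.

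The wt response of *Mapkapk3* was near the threshold. It lost its call without wt LPS replicate 1, 3 or 4, or without wt medium replicate 1, 2 or 3, with adjusted p between 0.0516 and 0.143, and its exact permutation p was 0.0571 (two-sided, n = 4 and 4, smallest possible 0.0286). The difference between the MK2/3-/- and wt responses lost its call in a fit of those groups alone (adjusted p = 0.0879).

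*Mapkapk5*, the remaining MAPKAP kinase, showed no difference between genotypes that passed the adjustment. Its probes (A_55_P2049256 and A_55_P2163009) correlated at r = 0.621 over the 23 arrays as a description, and all signals lay between 11.89 and 12.45. In MK2-/- BMDM in medium, the first probe gave 11.94, 11.9 and 12.31 and the second 12.29, 12.14 and 12.32, within or next to the wt values of 11.99 to 12.23 and 12.18 to 12.42. After LPS, the second probe was lower on all 4 MK2/3-/- arrays than on all wt and all MK2-/- arrays. The differences were -0.15 and -0.11 (adjusted p = 0.46 and 0.83 by limma, exact permutation p = 0.0286 for each, two-sided, n = 4 and 4). For the first probe they were -0.14 and -0.09, with 3 of 4 arrays below. With LPS in MK2/3-/- BMDM, the second probe gave 12.11, 12.1, 12.11 and 12.15, below all arrays of those cells in medium (12.33, 12.45, 12.28 and 12.4). This response of -0.25 passed the test (confidence interval -0.43 to -0.07, adjusted p = 0.0412), whereas that of the first probe was -0.21 (-0.43 to 0.01, adjusted p = 0.167). The call was lost in 12 of 36 alternatives, among them leaving out any 1 of the 4 LPS arrays or medium replicate 2 or 4 (adjusted p 0.0512 to 0.103) or the pair of medium arrays with unusual shares above background (adjusted p = 0.149), and the response was 0.00 when arrays were scaled to their 75th percentile.

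*Map2k3*, which encodes MKK3, rose with LPS by less than 1 on the log2 scale. In medium its probe gave 12.26, 12.32, 12.04 and 12.1 in wt, 12.06, 12.24 and 11.89 in MK2-/- and 11.91, 11.73, 12.03 and 11.97 in MK2/3-/- BMDM. With LPS it gave 12.28, 12.6, 12.66 and 12.47 in wt, 12.54, 12.52, 12.46 and 12.66 in MK2-/- and 12.3, 12.41, 12.32 and 12.62 in MK2/3-/- BMDM. In both knockout genotypes all LPS arrays lay above all medium arrays, and in wt 3 of 4 did. The response was 0.48 (adjusted p = 0.0103) in MK2-/- and 0.5 (adjusted p = 0.00322) in MK2/3-/- BMDM, and 0.32 in wt BMDM, where it did not pass (confidence interval 0.07 to 0.57, adjusted p = 0.0692). These responses differed from each other by 0.16, 0.18 and 0.02, none past the test. With the culture as a replicate block the wt response passed (0.32, adjusted p = 0.0344), as it did with normexp background (0.44, adjusted p = 0.00304), 75th percentile scaling (0.58, adjusted p = 0.00323), a floor on low signals (adjusted p = 0.0353) and a filter on detection (adjusted p = 0.0476). Without wt LPS replicate 1 the wt response was 0.4 (adjusted p = 0.0328), and without MK2-/- medium replicate 3 the MK2-/- response was 0.4 (adjusted p = 0.0686). Between genotypes in medium, MK2/3-/- arrays all lay below wt arrays, by -0.27 (confidence interval -0.52 to -0.02, exact permutation p = 0.0286 two-sided, n = 4 and 4), which did not pass the adjustment over all probes (adjusted p = 1).

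*Map2k6*, which encodes MKK6, gave signals between 5.1 and 7.81, well above background on every array, with a spread within groups that reached 1.08 (SD, n = 4). With LPS, the MK2/3-/- arrays gave 5.66, 5.1, 7.57 and 6.56 and the wt arrays 6.54, 6.37, 7.65 and 7.81, which overlap. The difference of -0.87 did not pass (confidence interval -1.94 to 0.19, adjusted p = 0.481), and the interval reaches below -1.

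*Mapk14*, encoding p38α, was steady at the brighter of its probes. On A_55_P2046338 all 23 signals lay between 13.59 and 14.08, and every genotype and LPS comparison had a confidence interval within -0.44 and 0.34. On A_55_P2179348 signals lay between 8.5 and 9.58. With LPS this probe gave 9.0, 8.96, 8.5 and 8.57 in MK2/3-/- BMDM, below the 9.58, 9.47, 9.1 and 9.42 of MK2-/- BMDM on all 4 arrays. The difference of -0.63 (confidence interval -1.04 to -0.23) did not pass the adjustment (adjusted p = 0.295), nor did that from wt BMDM of -0.44 (-0.85 to -0.04, adjusted p = 0.305). The probes correlated at r = 0.388 over the arrays as a description.

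**Figure D2:**
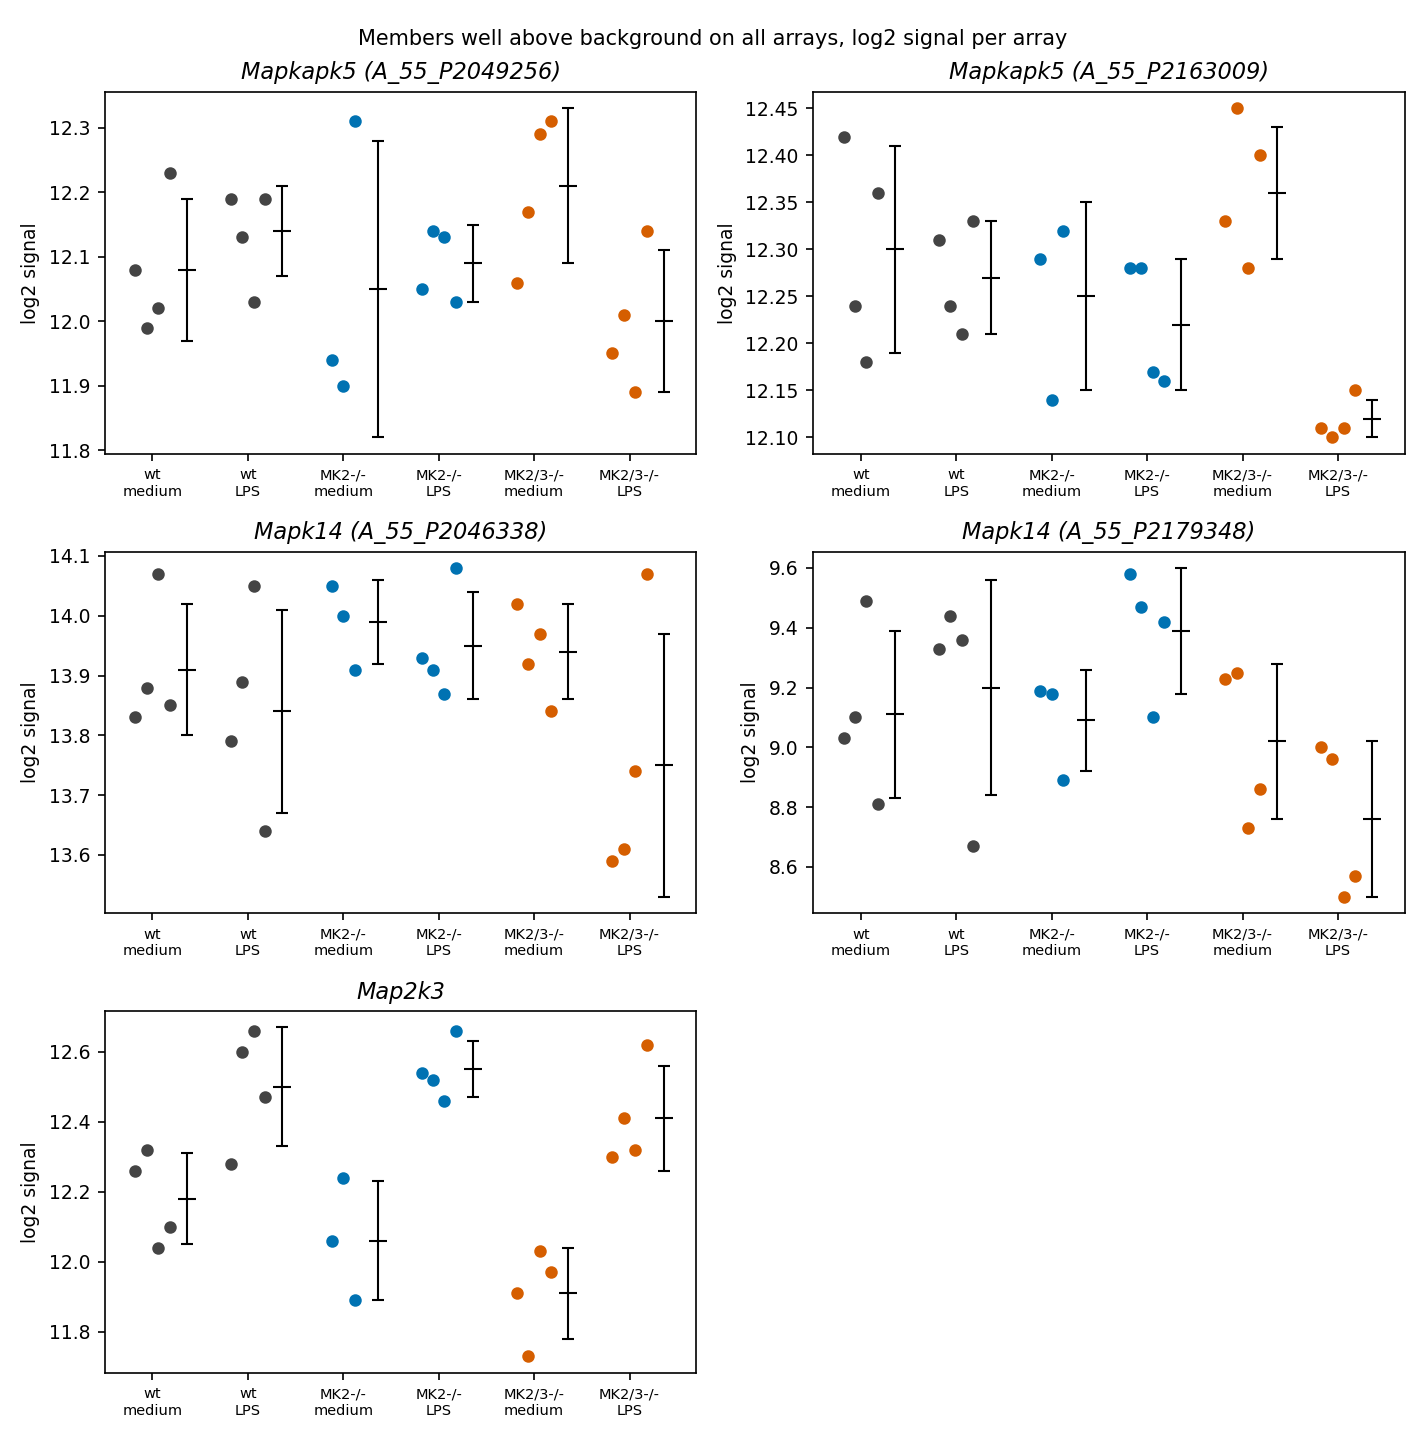
Log2 signal per array (points) with group mean and SD (bars) for both *Mapkapk5* probes, both *Mapk14* probes and *Map2k3*; each panel has its own y axis. *Map2k3* with LPS lay at 12.28 to 12.66 over all genotypes and in medium at 11.73 to 12.32.

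The p38 isoforms β (*Mapk11*), γ (*Mapk12*) and δ (*Mapk13*) gave low signals, and their wt values hung on replicate 1. *Mapk11* was well above background on all arrays at 5.94 to 7.89. *Mapk13* gave 6.93, 4.81, 5.32 and 4.75 in wt BMDM in medium and 6.78, 4.68, 5.59 and 5.43 with LPS. *Mapk12* gave 6.84, 3.85, 4.66 and 4.75 in medium and 6.97, 4.04, 3.21 and 5.33 with LPS. The first of the 4 values is the highest in each case, and the same wt replicate was also the highest for *Mapk11* (7.38 in medium and 7.58 with LPS). *Mapk12* was well above background on 3, 3, 1, 3, 2 and 1 arrays, and *Mapk13* on 4, 4, 2, 2, 3 and 4 arrays, of wt medium, wt LPS, MK2-/- medium, MK2-/- LPS, MK2/3-/- medium and MK2/3-/- LPS.

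Differences of these isoforms from wt BMDM did not pass the adjustment. *Mapk13* was 4.18, 4.58, 4.74 and 4.5 in MK2/3-/- BMDM in medium, below all wt arrays, with a difference of -0.96 (confidence interval -1.81 to -0.1, adjusted p = 0.995) that became -0.46 without wt medium replicate 1. In MK2-/- BMDM with LPS it was 4.48, 4.42, 4.92 and 4.57, a difference of -1.02 (-1.88 to -0.16, adjusted p = 0.624) that became -0.63 without wt LPS replicate 1. *Mapk12* differed by -1.54 in MK2/3-/- BMDM in medium (-3.1 to 0.02), or by -0.93 without wt medium replicate 1. *Mapk11* differed in MK2-/- BMDM by -0.55 in medium (-1.25 to 0.15) and by -0.6 with LPS (-1.25 to 0.05), or by -0.32 and -0.39 without wt replicate 1 of the same treatment. *Mapk11* and *Mapk12* lie next to each other in the GRCm38.p6 gene table.

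**Figure D3:**
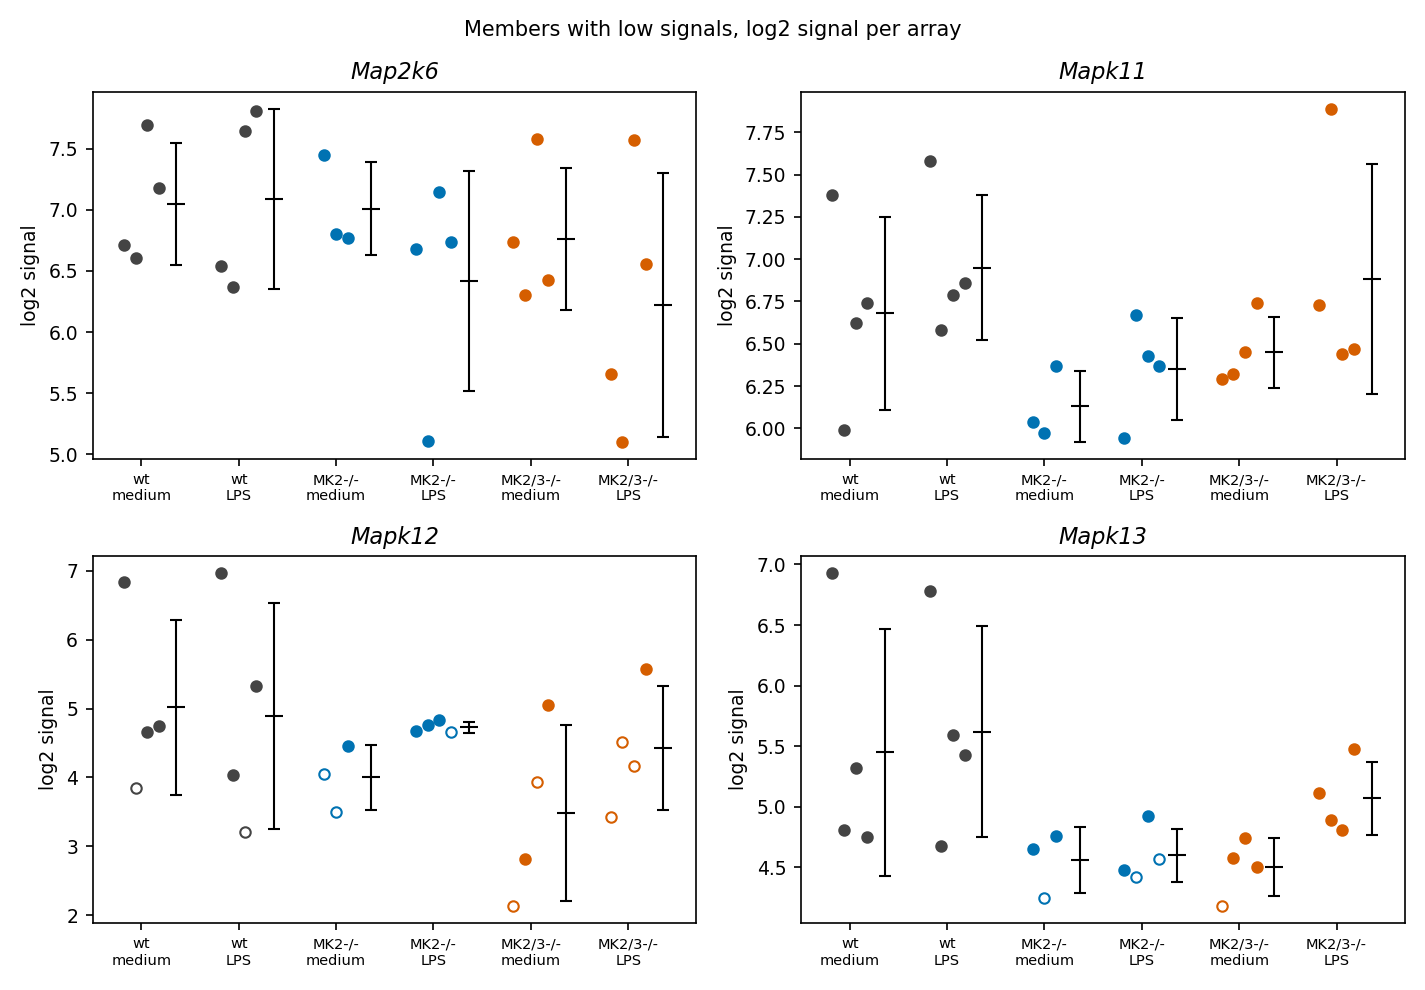
Log2 signal per array for *Map2k6*, *Mapk11*, *Mapk12* and *Mapk13*, with group mean and SD (bars); open points mark arrays on which the probe was not well above background, and each panel has its own y axis. The wt replicate 1 arrays (leftmost wt points) reach 6.84 and 6.97 for *Mapk12* and 6.93 and 6.78 for *Mapk13*.

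Over the 9 probes of members that were not targeted, none passed the adjustment in any comparison between genotypes, and no rise in a remaining kinase was called. In medium, 1 of 11 member probes passed between MK2-/- and wt BMDM (0.0152% of all probes passed) and 2 between MK2/3-/- and wt BMDM (0.0699%), all being the targeted genes, and 1 between the knockout genotypes (0.0487%). With LPS, the counts were 1 (0.0304%), 2 (1.71%) and 1 (0.161%). The untargeted probes differed from wt BMDM in medium by -1.02 to 0.08 in MK2-/- and by -1.54 to 0.13 in MK2/3-/- BMDM, and with LPS by -1.02 to 0.19 and -0.87 to -0.07. Unadjusted p-values under 0.05 were found for 1, 4 and 1 of the 11 member probes in medium and for 2, 3 and 2 with LPS, in the same order and with the targeted genes included, against 3.44%, 4.76% and 3.59% of all probes in medium and 7.5%, 13.9% and 8.05% with LPS. The precision differed between members, since the confidence interval lay within 1 log2 unit of 0 for 5 and 6 of the 9 probes in medium and for 5 and 6 with LPS, and the rest could have changed by more without being seen. The median difference from wt BMDM over the 9 untargeted probes was -0.05 in MK2-/- and -0.23 in MK2/3-/- BMDM in medium, and -0.05 and -0.15 with LPS. Over all probes it was 0.02, 0.02, 0.02 and 0.01.

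**Figure D4:**
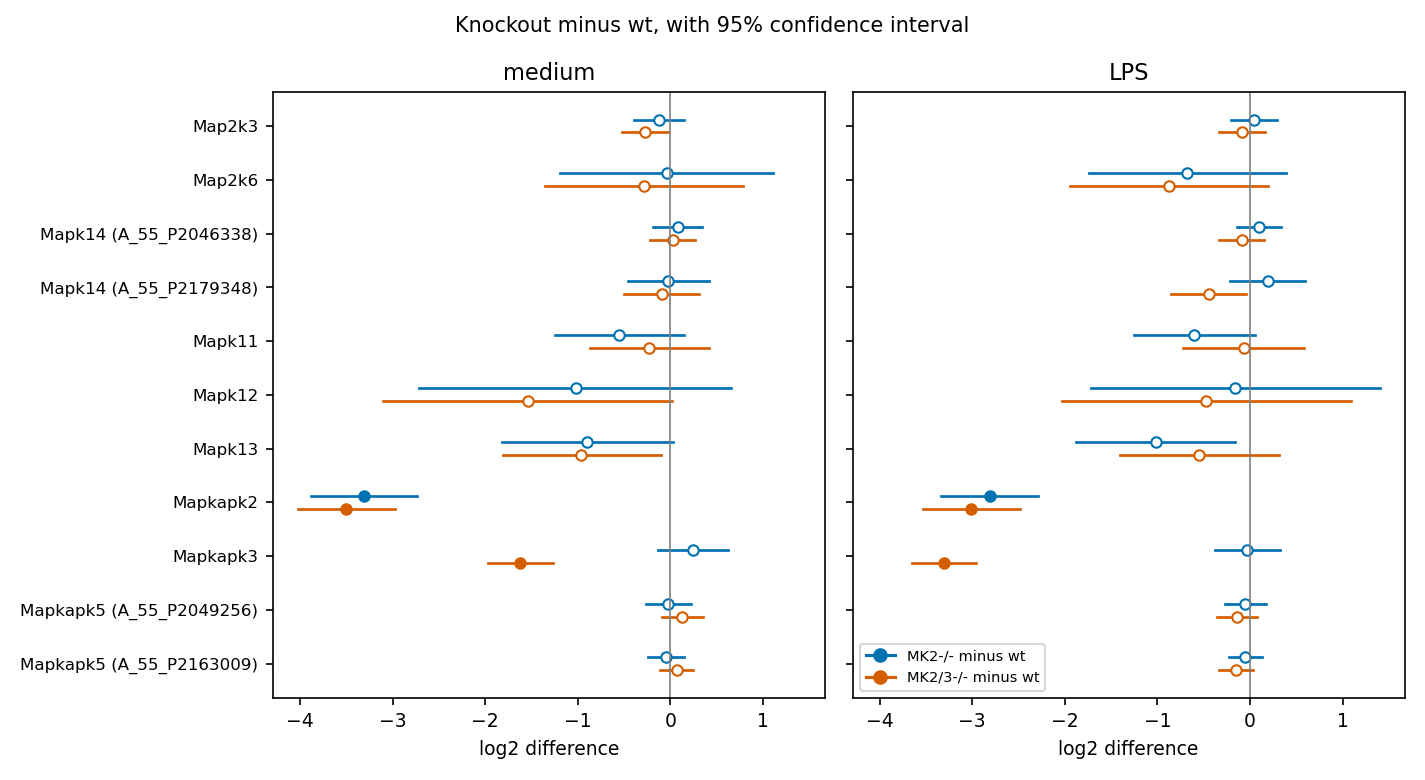
Log2 difference of MK2-/- (blue) and MK2/3-/- (orange) from wt BMDM for each member probe, in medium (left) and with LPS (right), with 95% confidence intervals; filled points passed the adjustment. Only *Mapkapk2* (-3.5 to -2.81) and, in MK2/3-/- BMDM, *Mapkapk3* (-1.62 and -3.3) are filled.

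For LPS against medium, 2 of 11 member probes passed in wt (17.9% of all probes), 2 in MK2-/- (19.4%) and 4 in MK2/3-/- BMDM (26%). In wt these were *Mapkapk2* and *Mapkapk3*, in MK2-/- *Mapkapk2* and *Map2k3*, and in MK2/3-/- BMDM *Mapkapk2* and *Map2k3* upward and *Mapkapk3* and 1 *Mapkapk5* probe downward. The LPS response differed between genotypes for 0 member probes in MK2-/- against wt BMDM (0.00304% of all probes, and 0 member probes at an unadjusted p under 0.05), for 1 in MK2/3-/- against wt BMDM (0.0122%) and for 0 in MK2/3-/- against MK2-/- BMDM (0%, and 1 member probe at an unadjusted p under 0.05).

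**Figure D5:**
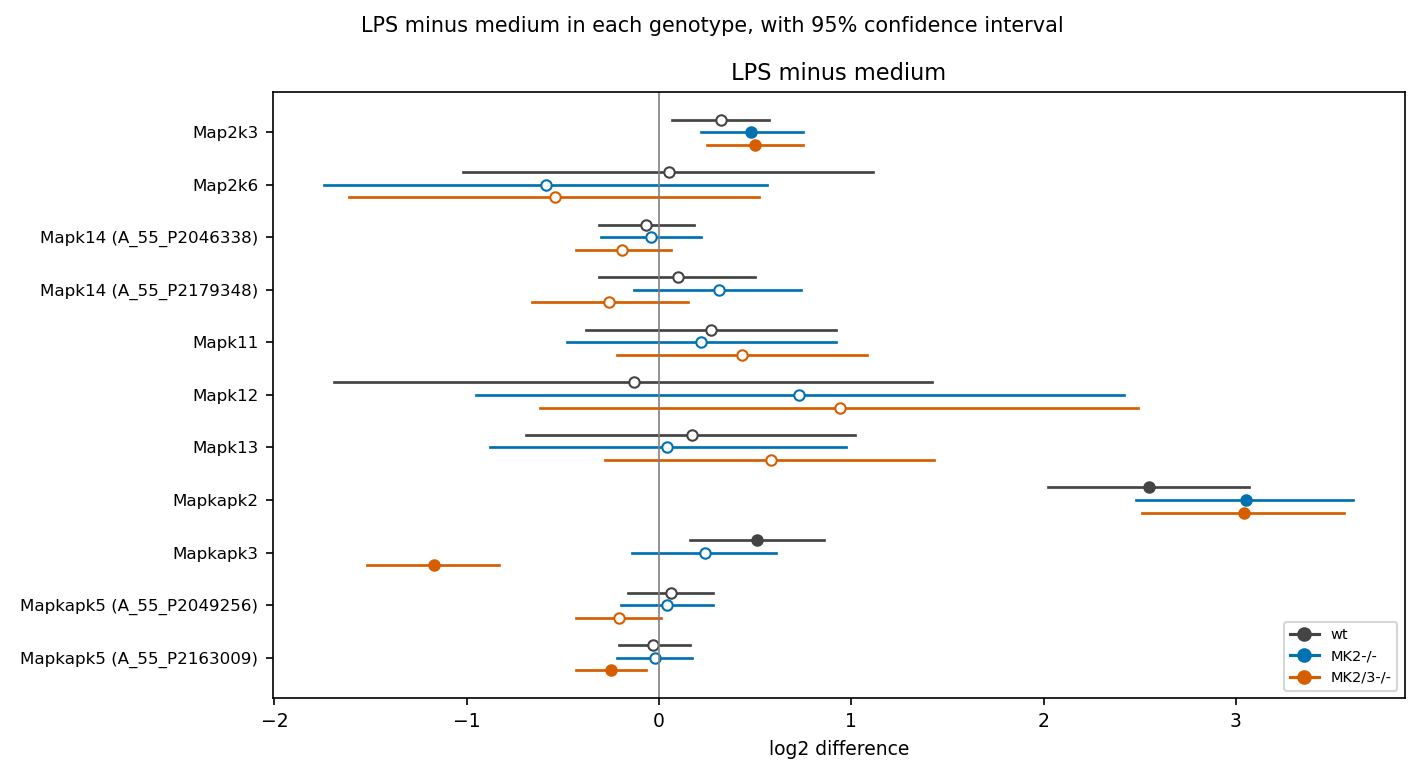
Log2 difference of LPS from medium for each member probe in wt (grey), MK2-/- (blue) and MK2/3-/- BMDM (orange), with 95% confidence intervals; filled points passed the adjustment. *Mapkapk2* lies at 2.55 to 3.05 in all genotypes, and *Mapkapk3* at 0.51 in wt and at -1.17 in MK2/3-/- BMDM.

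Other genes of the pathway were counted from lists chosen by the known role of each gene, with earlier results of these data known. The counts take all probes, whereas a gene named for its LPS change is shown by its probe with the largest absolute change in wt BMDM. Of 28 probes of 21 genes for MAP3 kinases and adaptors upstream of p38, 15 passed with LPS in wt (8 higher, 7 lower), 14 in MK2-/- (8 and 6) and 21 in MK2/3-/- BMDM (14 and 7), or 53.6%, 50% and 75%, against 17.9%, 19.4% and 26% of all probes. In a fit of only the 20,758 probes well above background on all arrays of any group, 31.3%, 32.3% and 42.4% passed. The lists were not split by detection. *Gadd45b*, which binds and activates the MAP3 kinase MTK1, rose by 5.01, 4.85 and 4.98 on the log2 scale in wt, MK2-/- and MK2/3-/- BMDM. *Tab1*, an adaptor of the MAP3 kinase TAK1 that also binds p38α, fell, with differences of -3.01, -3.36 and -3.54. *Map3k12*, a MAP3 kinase best known in neurons, fell, with differences of -2.35, -2.29 and -2.39. Its mean signals with LPS were low, at 3.71, 3.78 and 3.74, which limits how well the size of this fall is known. Of 29 probes of 15 genes of the ERK and JNK branches, 8, 9 and 9 passed (27.6%, 31% and 31%). There *Map3k8*, the kinase that activates the ERK branch after LPS, rose by 2.86, 2.64 and 3.21, *Mapk6*, encoding the MK5 partner ERK3, rose by 2.08, 1.9 and 2.24, and *Mapk7*, encoding ERK5, fell, at -1.8, -2.2 and -2.3.

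Kinases and phosphatases beside and below p38 were counted in the same way. The shares of all probes were again 17.9%, 19.4% and 26%, and those of detected probes 31.3%, 32.3% and 42.4%. Of 10 probes of 8 other MAPK-activated kinases, 4, 5 and 5 passed with LPS in wt, MK2-/- and MK2/3-/- BMDM (40%, 50% and 50%). Among them *Rps6ka5*, encoding the nuclear p38 and ERK target MSK1, rose by 1.03, 1.01 and 1.56, and *Mknk2*, encoding an eIF4E kinase, fell, at -1.23, -1.31 and -1.3, while *Rps6ka1* fell in the knockout genotypes, at -0.99 and -0.96, and was at -0.91 in wt (adjusted p = 0.0513). Of 7 probes of 5 phosphatases that act on p38, 4, 3 and 3 passed (57.1%, 42.9% and 42.9%): *Dusp16* rose by 3.57, 2.75 and 3.98, *Dusp1* rose by 2.58, 2.17 and 2.36, and *Ppm1d* fell by 0.94 in wt and was at -0.77 (adjusted p = 0.0793) and -0.7 (adjusted p = 0.0691) in the knockouts. Of 18 probes of 15 MK2 substrates, 5, 7 and 6 passed (27.8%, 38.9% and 33.3%), with *Zfp36*, encoding tristetraprolin, rising by 2.27, 1.86 and 2.27 and its relative *Zfp36l2* falling, at -4.92, -6.3 and -5.64. The cell cycle phosphatase *Cdc25b* was at -1.25, -1.4 and -1.33 and did not pass (adjusted p 0.107 to 0.169). The median difference with LPS in wt BMDM was 0.21, -0.02, 0.08, 0.22 and -0.10 for the lists in this order, against -0.04 over all probes.

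Between genotypes, 2 of the 92 probes of these lists passed, both in MK2/3-/- against wt BMDM with LPS, a share of 2.17% against 1.71% of all probes. *Map3k11*, encoding the MAP3 kinase MLK3, had means of 10.84 in wt and 11.69 in MK2/3-/- BMDM, a difference of 0.85 (SE 0.13, adjusted p = 0.00205), with 4 of 4 arrays above all wt arrays. *Ripk1*, encoding a cell death kinase that MK2 phosphorylates, had means of 11.3 and 12.29, a difference of 1.00 (SE 0.24, adjusted p = 0.0378), with 3 of 4 arrays above. In MK2/3-/- BMDM both rose with LPS, by 0.75 (adjusted p = 1.52e-04) and 0.95 (adjusted p = 0.0051), whereas in wt they were at -0.15 and -0.05, and the difference between these LPS responses passed for neither. The count of MK2 substrates called in this comparison fell from 1 to 0 without MK2/3-/- LPS replicate 1 or 2, without wt LPS replicate 1 or 4 and without the pair of MK2/3-/- medium arrays with unusual shares above background, and rose to 2 without MK2-/- or MK2/3-/- LPS replicate 4.

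The genes whose signals followed the targeted kinases most closely were found among 15,085 probes well above background on all arrays. For *Mapkapk2* these were *Smarca5-ps* (Pearson r = 0.865 over 23 arrays), *Srp54a* (0.843) and *Hnrnpab* (0.841), none on the chromosome of *Mapkapk2*. For *Mapkapk3* they included *Plcxd1* (r = 0.92) and *Abhd14b* (0.917), and *Abhd14b* lies on the chromosome of *Mapkapk3*. In MK2/3-/- BMDM in medium the mean log2 signal of *Abhd14b* was 7.29, against 10.87 in wt and 11.15 in MK2-/- BMDM. That of *Plcxd1*, which is not on the chromosome of *Mapkapk3*, was 9.22, against 11.83 in wt and 11.7 in MK2-/- BMDM. These correlations are a description over arrays that share genotype, slide and treatment.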

How the data were processed

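RNA of 23 BMDM samples was hybridized to Agilent SurePrint G3 Mouse one-colour arrays. The spot intensity deposited by the authors was made with Agilent Feature Extraction 11.0.1.1 and, per the file headers, is linear, background-subtracted and not normalized between arrays. The log2 values deposited by the authors are quantile normalized with each probe's median subtracted. They matched intensities processed the same way here (r = 0.9998, median absolute difference 0.0002706), and served as an alternative.

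Spots marked non-uniform or as population outliers were set to missing, intensities were log2 transformed, spots of a probe were averaged and 55,681 non-control probes were quantile normalized (R 4.3.3, limma 3.58.1, data.table version 1.17.8). The 29,150 probes with a RefSeq and the 3,735 with a GenBank accession were tested in 1 limma model of 6 groups with 12 contrasts, with Benjamini-Hochberg adjustment over 32,885 probes at 0.05; probes without such an accession were left out. Probe names came from the RefSeq genes of GRCm38.p6. No probe of a member was filtered out, and different probes of a gene were kept apart. The p-values rest on the spread between arrays of experiments that the methods call independent, whose number sets the precision. The fit was tested on simulated data. Promoter windows came from RefSeq, and figures were drawn with Python 3.11.15, matplotlib 3.10.9 and pandas 2.3.3.

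Named were every probe of the 9 members, the genes of 5 pathway lists that passed in a genotype comparison or had 1 of the 3 largest LPS changes in wt BMDM, and the 3 genes most correlated with *Mapkapk2* and with *Mapkapk3*; a gene that this rule names is not reported here. Members and lists were chosen with earlier results of these data known. Alternatives were other scalings, background corrections, filters, probe choices, blocks and tests, each array left out in turn, and, chosen after seeing the data, leaving out MK2/3-/- medium replicates 1 and 2.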

Additional observations from a re-analysis of the deposited data

Results flagged for a closer look

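Of 55 groups of 4 arrays examined, 2 held an array set apart from the other 3 by a large gap, and chance gives such a gap in about 1 of 20 groups. *Mapkapk2* in MK2/3-/- BMDM with LPS was 12.26 in replicate 4 against 11.54 to 11.65 in the others. *Mapk14* (A_55_P2179348) in wt BMDM with LPS was 8.67 in replicate 4 against 9.33 to 9.44 in the others.

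The LPS response of *Mapkapk3* differed between MK2/3-/- and wt BMDM by -1.68 on the log2 scale (adjusted p = 0.014), being 0.51 in wt and -1.17 in MK2/3-/- BMDM, as tested by the difference of the responses in limma. *Mapkapk3* is a targeted gene in MK2/3-/- BMDM, and what gives its remaining signal there was not tested.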

How the results depend on the processing

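Of 441 alternative values of the 12 counts of member probes called, 422 stayed within 1.5 times the count reported and 19 did not; no member value called in either fit changed sign. When only the groups compared were fitted, the count was 0 for MK2-/- against wt in medium (reported 1), 1 for MK2/3-/- against wt in medium (reported 2), 0 for MK2/3-/- against MK2-/- in medium (reported 1), 0 for MK2-/- against wt with LPS (reported 1), 1 for LPS in wt (reported 2) and 0 for the LPS response of MK2/3-/- against wt (reported 1). With the methods' t-test after adjustment it was 0, 0, 0 and 0 for the first 4 of these, 1 for MK2/3-/- against wt with LPS (reported 2) and 1 for LPS in wt, and at the unadjusted threshold of the methods 1, 3, 1, 1, 3 and 3. With all probes that are not controls it was 1 for LPS in wt. Leaving out 1 array, the count ranged from 1 to 2 for LPS in wt, the lower value without wt LPS replicate 3 or 4 or wt medium replicate 1, 2 or 3, and from 1 to 2 for LPS in MK2-/- BMDM, the lower value without medium replicate 3. The cause was not tested, beyond the smaller number of arrays. The share of all probes called for MK2/3-/- against wt with LPS (1.71%) was 0.517% and 0.602% without wt LPS replicate 1 and 4, 0.909%, 0.715% and 0.991% without MK2/3-/- LPS replicate 1, 2 and 3, 2.54% without the fourth, 0.0243% with only the groups compared, 0.0213% with the methods' t-test after adjustment, 3.79% with a filter on detection and 3.94% with the replicate number as a block. With scaling to the 75th percentile, the median difference over all probes reached 0.16, for example for LPS in MK2-/- BMDM, where it was -0.03 in the main fit. *Mapkapk3* (0.63, adjusted p = 0.0372) then passed for LPS in MK2-/- and *Map2k3* (0.58, adjusted p = 0.00323) for LPS in wt BMDM.

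Medium and LPS arrays of the same culture had correlated deviations from their group means (r 0.0951 to 0.575, over 0.1 in 10 of 11 pairs). MK2-/- medium replicate 3 was paired with LPS replicate 4 by mouse age and slide column, since their numbers differ. Arrays sharing only a replicate number across genotypes had a median r of 0.156, over 0.1 in 16 of 22 pairs. On probes well above background on all arrays, r was 0.371 to 0.774 within cultures. Across genotypes its median there was 0.377, over 0.1 in 17 of 22 pairs. The main fit used neither pairing, and whether replicates of different genotypes were run together was not tested. With culture as a replicate block (correlation 0.253) the counts were 1, 2 and 1 in medium, 1, 2 and 1 with LPS, 3, 2 and 4 for LPS against medium and 0, 1 and 0 for the differences in LPS response, *Map2k3* being gained in wt BMDM (adjusted p = 0.0344). With the replicate number as a block, LPS in wt gave 2 and no count moved. Depth is limited at *Mapk12* and *Mapk13*, which were near background on part of the arrays. Among the list genes, the mean signals of *Map3k12* with LPS (3.71 to 3.78) and of *Dusp16* in medium (4.85 to 5.45) were also low.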
